A study of Mus musculus with 36 samples.

Results

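The Hox cluster genes of the embryonic mouse heart were taken as the probe sets annotated to a single symbol of the Hoxa, Hoxb, Hoxc or Hoxd cluster, with the probe set of the highest mean over all 36 arrays standing for each gene. This gave 33 of the 39 Hox cluster genes in the RefSeq gene table, out of 18193 genes with a probe set of their own, with 9 in Hoxa, 9 in Hoxb, 7 in Hoxc and 8 in Hoxd. Hoxb8 and Hoxd4 were read only by probe sets they share with Hoxb7 and Hoxd3, and the remaining 4 genes were not analysed here. The choice used gene names and the mean over all arrays, and no difference between groups.

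The study followed normal heart development in C57BL/6 mouse embryos with Affymetrix arrays, 3 for each of 12 groups. Atrial chambers and ventricles were dissected apart at 5 ages, namely embryonic days E12.5 and E13.5, day E14.5, and days E16.5 and E18.5. At E10.5 and E11.5 the description names the trunk of the embryo around and including the heart, while the source field names the heart alone, and these 2 groups are called heart region below. No group carried a mutation or a treatment. The E16.5 arrays are given as day 15.5 in their description. Nothing in the labels says whether the arrays of a group came from separate litters or pools, so the spread between them may be technical.

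Hox genes encode homeodomain transcription factors that lie side by side in 4 clusters and give positional identity along the body axis. Genes near the 3′ end of a cluster, the low paralog numbers, are switched on early and have anterior expression limits, while the high numbers are switched on later and act in the posterior trunk, limbs and genital region. They bind DNA together with TALE homeodomain partners of the Pbx, Meis and Pknox families, and anterior members respond to retinoic acid. In the heart, anterior Hox genes mark progenitors of the second heart field that contribute to the outflow tract and the atria, and cardiac neural crest. Paralog groups 1 to 4 are called anterior below, groups 5 to 8 central and groups 9 to 13 posterior.

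The deposited values are intensities on a linear scale, brought by their makers to the same trimmed mean on every array. The median of all values was 171.8, and array medians lay between 143.8 and 210.7. Heart muscle genes were high everywhere, with all 10 of 10 listed members above that median on each array. Their summed intensity ran from 89560 to 156067 on atrial arrays, 99583 to 154240 on ventricular arrays and 113548 to 128491 on heart region arrays. The neural and the somite lists stayed within or below the chamber range in the heart region. The 10 neural genes summed to 623 to 1397 on chamber arrays, against 784 to 1252 there. The 10 somite and skeletal muscle genes summed to 938 to 2540, against 744 to 1503. The 8 limb bud genes summed to 1150 to 3142 in atria (median 1790) and 1182 to 2376 in ventricles (median 1591). In the heart region they were higher than either chamber median, at 2261 to 2868 with a median of 2374. Atrial array 3 of E13.5, E16.5 and E18.5 stood apart, with foregut and lung genes summing to 5839, 10031 and 16318, against at most 4432 on the other arrays. The lung surfactant gene Sftpc read 1745, 5694 and 10949 there, and at most 333.8 elsewhere. Atrial array 3 of E14.5 stood apart by single genes, with 642.4 for Myog, a skeletal muscle regulator, and 241 for Pax1, a sclerotome gene. These read at most 244.1 and 91.1 on the other 35 arrays. By the sum of the somite and skeletal muscle list it did not stand apart. The highest sum, 2540, was on atrial array 1 of E14.5, which is not among the arrays left out together below. Liver genes summed to 22421 on E12.5 atrial array 2 and 11932 on E16.5 ventricular array 2, against at most 5009 on the other arrays. For the 33 Hox genes, results that rest on these arrays are given with and without them. The lists of other genes and the antisense and shared probe sets are given with all arrays only.

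Most Hox genes read low in these samples. Of the 33, 11 lay above the median of all values on 3 or more arrays, which is 33.3%, against 71.3% of all 18193 genes. Hoxa5 and Hoxb2 were above it on all 36 arrays, and 14 genes were above it on none. On a single array, between 3 and 10 Hox genes passed the median, with 10 on E14.5 atrial array 3 and 9 on both E13.5 atrial array 3 and E14.5 ventricular array 1. Counted within the 15 atrial, the 15 ventricular and the 6 heart region arrays, 8, 8 and 6 Hox genes reached it on 3 or more arrays. A bar of 3 in 6 arrays is stricter than 3 in 15, so these counts are not alike. Shares of all genes within these sets of arrays are not given here. The 11 genes comprised 5 of 10 anterior, 3 of 9 central and 3 of 14 posterior genes. By cluster they were 4 of 9 Hoxa, 4 of 9 Hoxb, 1 of 7 Hoxc and 2 of 8 Hoxd genes. An intensity depends on the probes as well as on the RNA, so levels of different genes were not ranked against each other.

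**Figure D1:**
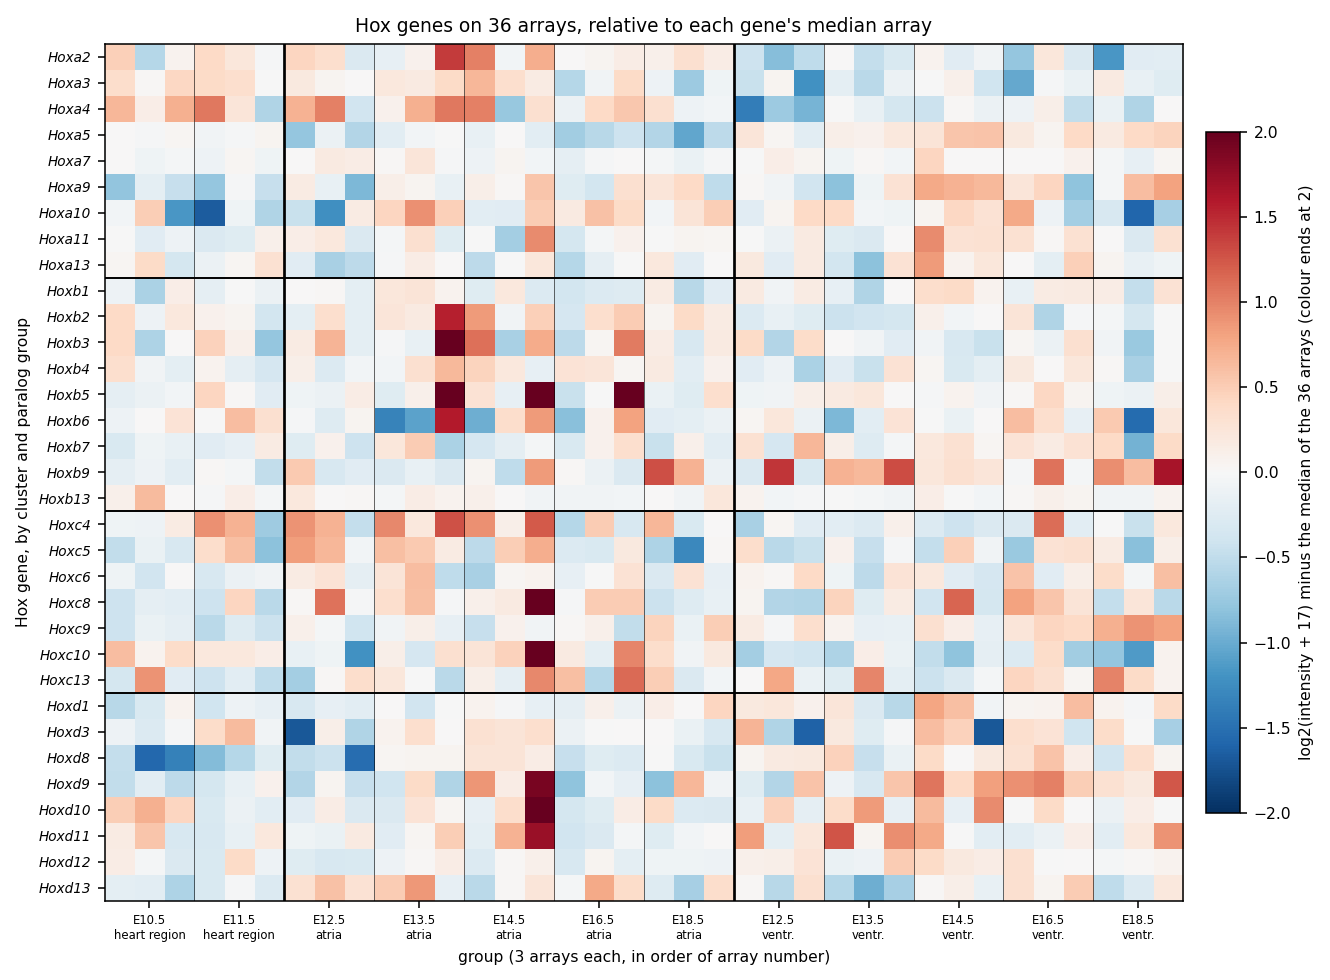
Each row is one of 33 Hox genes, by cluster and paralog group, and each column one of 36 arrays. Colour gives log2(intensity + 17) minus that gene's median array, so that atrial array 3 of E13.5 shows dark in Hoxb2, Hoxb3, Hoxb5 and Hoxb6 and atrial array 3 of E14.5 in Hoxc8, Hoxc10, Hoxd9, Hoxd10 and Hoxd11.

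Differences were tested with limma on log2(intensity + 17), in 1 fit of 12 group means over all 45037 probe sets. The Benjamini-Hochberg adjustment ran over all of them within each comparison, and a gene was called at an adjusted p below 0.05. Log2 differences are on this scale, which understates the change of dim genes.

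Between the isolated chambers and the heart region, few Hox genes differed. Hoxd8, Hoxa9 and Hoxc9 were called higher in the chambers and none was called lower, so 3 of 33 genes were called, against 27.9% of all probe sets. Of all probe sets, 14.5% were called higher and 13.4% lower. The median log2 difference of the 33 genes was 0.12, against 0.04 for all probe sets. At an unadjusted p below 0.05 there were 8 Hox genes. The groups of this contrast differ in age as well as in dissection, which cannot be told apart in it. Other lists moved with it: 6 of 6 leukocyte genes and 8 of 10 fibroblast and matrix genes were higher in chambers, and 6 of 7 erythroid genes lower. Leukocyte genes summed to 1804 to 6267 on chamber arrays, against 925 to 1915 in the heart region, and the part of these cells in the Hox differences was not tested.

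Hoxd8, a central Hoxd gene of the trunk, read 31.7, 127.7 and 189.1 as lowest, median and highest on 30 chamber arrays. On the 6 heart region arrays it read 59.3, 76.5 and 101.0 at E11.5 and 83.0, 29.8 and 37.5 at E10.5. The ranges overlapped, but the chamber median lay above every heart region array. The log2 difference was 0.80 ± 0.15 (SE), or 1.74-fold, with a limma adjusted p of 0.00014. Its second probe set gave 0.25, with an adjusted p of 0.42.

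Hoxa9, known for its role in blood progenitors, read 144.8, 303.3 and 509.8 as lowest, median and highest on chamber arrays, against 160.5, 281.1 and 203.7 at E11.5 and 158.5, 249.1 and 202.1 at E10.5 in the heart region. The groups overlapped. The difference was 0.52 ± 0.17, with an adjusted p of 0.023. Leaving out heart region array 1 of E11.5, array 3 of E11.5 or array 1 of E10.5 ended the call, with adjusted p of 0.10, 0.053 and 0.091, and the gene's second probe set gave −0.05. Hoxc9, which acts in thoracic spinal cord identity, was dim, with 13.9, 29.5 and 64.2 on chamber arrays and 13.1 to 22.8 on heart region arrays. Its difference was 0.44 ± 0.11 with an adjusted p of 0.0027.

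The largest difference that was not called was that of Hoxa10, a gene of the lumbar region and reproductive tract, at 0.54 ± 0.23 with an adjusted p of 0.075. Its second probe set gave 0.18. Among anterior genes none of 10 was called in either direction, and their median was 0.00. Hoxa3, needed for thymus and parathyroid formation, gave −0.35 ± 0.15 (adjusted p 0.079), with 66.6, 170.9 and 288.2 as lowest, median and highest on chamber arrays and 175.8 to 239.5 on heart region arrays. Of central genes, 1 of 9 was higher, with a median of 0.13, and of posterior genes 2 of 14, with a median of 0.23.

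In the step from the E11.5 heart region to the E12.5 chambers, limma called 0 of 33 Hox genes, against 0.42% of all probe sets (0.107% higher and 0.313% lower), with 2 genes at an unadjusted p below 0.05. The largest difference was that of Hoxd3 at −0.93 ± 0.41 (adjusted p 0.42). It read 23.6, 125.8 and 69.5 in E12.5 atria and 193.9, 69.9 and 26.1 in E12.5 ventricles, against 152.6, 186.5 and 108.4 in the E11.5 heart region. Within the heart region, E11.5 against E10.5, limma again called 0 of 33, against 0.584% of all probe sets (0.464% higher and 0.12% lower), with 1 gene at an unadjusted p below 0.05. There the largest difference was −0.76 ± 0.51 for Hoxd10 (adjusted p 0.72).

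Between atria and ventricles, on the chosen probe sets, the calls among anterior Hox genes were all higher in atria. Of the 6 calls among central and posterior genes, 5 were lower. Over the 5 ages, another probe set of Hoxa3 was called lower (−0.53, limma adjusted p 0.0094) and the second of Hoxa5 higher (0.92, adjusted p 0.00091). Averaged over the 5 ages, Hoxa2, Hoxa3, Hoxa4, Hoxb2, Hoxc4 and Hoxc10 were called higher in atria, and Hoxa5, Hoxb9, Hoxc9, Hoxd8 and Hoxd12 lower. These are 11 of 33 genes, or 33.3%, and 29.1% of all probe sets were called in this comparison, 14.1% higher and 14.9% lower, so the share of Hox genes called was near the background. By class the calls were 5 higher and 0 lower of 10 anterior genes, 0 higher and 2 lower of 9 central genes, and 1 higher and 3 lower of 14 posterior genes. Median log2 differences were 0.37, −0.03 and −0.14 in the 3 classes, against −0.02 for all probe sets. By paralog group the medians were −0.17 in group 1, 0.54 in group 2, 0.34 in group 3, 0.51 in group 4 and 0.20 in group 5, and from group 6 on they lay between −0.36 and 0.24. Without the 4 atrial arrays that stood apart, 3 genes were called higher, all of them anterior, and 3 central or posterior genes lower. Groups 1 to 5 then gave −0.17, 0.42, 0.11, 0.45 and −0.14, so that the sign turned in group 5. The difference between classes was not itself tested.

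**Figure D2:**
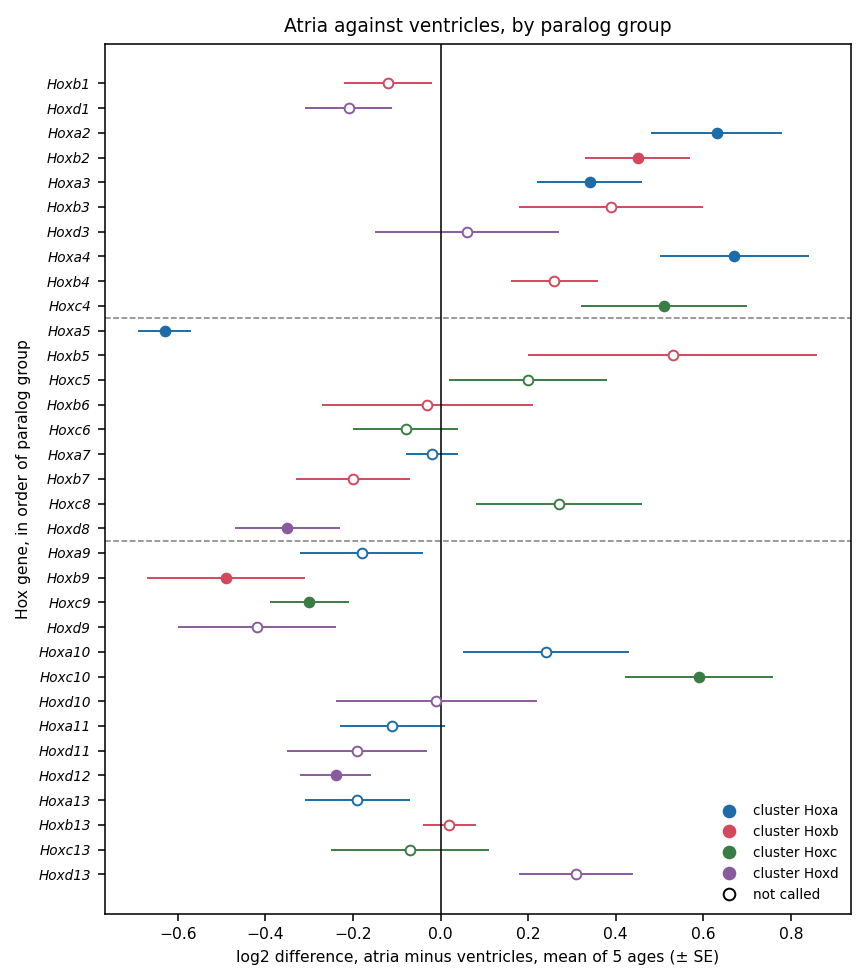
Log2 difference of atria minus ventricles, averaged over 5 ages, with its standard error, for 33 Hox genes in order of paralog group. Filled points were called, and dashed lines part the anterior, central and posterior genes; all 8 genes of paralog groups 2 to 4 lie above 0.

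The promoter stretches of 3 genes called higher in atria and of Hoxa5, called lower, are given here. On their chosen probe sets these genes moved in opposite directions, while 3 of them share a cluster. Another probe set of Hoxa3 and the second of Hoxa5 were called the other way. Hoxa3 and Hoxc4 were not called without the 4 atrial arrays. Each is the 250 bases before the gene's start, 5′ to 3′ on the gene's strand, from RefSeq on GRCm38.p6. Capitals mark matches, on either strand, to TGACAG (a TALE site), TGATTNAT (a joint Hox and Pbx site) or AGGTCA (a site of nuclear receptors).
Hoxa2 (chr6:52164832-52165081, minus strand): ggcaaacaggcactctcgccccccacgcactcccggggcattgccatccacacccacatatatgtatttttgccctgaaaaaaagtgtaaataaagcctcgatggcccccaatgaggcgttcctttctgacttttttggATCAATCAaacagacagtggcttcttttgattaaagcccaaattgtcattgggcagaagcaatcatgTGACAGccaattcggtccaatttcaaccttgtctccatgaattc
Hoxa3 (chr6:52213068-52213317, minus strand): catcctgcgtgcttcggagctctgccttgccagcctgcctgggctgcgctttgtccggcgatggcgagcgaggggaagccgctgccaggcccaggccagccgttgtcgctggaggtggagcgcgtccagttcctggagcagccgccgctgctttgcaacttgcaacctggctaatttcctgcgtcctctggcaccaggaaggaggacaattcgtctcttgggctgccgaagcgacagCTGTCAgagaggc
Hoxc4 (chr15:103034145-103034394, plus strand): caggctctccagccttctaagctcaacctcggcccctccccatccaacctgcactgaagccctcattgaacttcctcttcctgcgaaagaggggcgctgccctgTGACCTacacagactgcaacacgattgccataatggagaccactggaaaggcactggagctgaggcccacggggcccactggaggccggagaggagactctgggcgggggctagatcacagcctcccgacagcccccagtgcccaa
Hoxa5 (chr6:52204588-52204837, minus strand): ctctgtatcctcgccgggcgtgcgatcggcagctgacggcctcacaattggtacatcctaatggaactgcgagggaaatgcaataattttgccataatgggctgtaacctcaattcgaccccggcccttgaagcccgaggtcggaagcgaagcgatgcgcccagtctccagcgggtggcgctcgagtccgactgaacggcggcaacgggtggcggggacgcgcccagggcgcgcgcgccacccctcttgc
In Hoxa2 the capitals mark a Hox and Pbx site followed by a TALE site, in Hoxa3 a TALE site and in Hoxc4 a nuclear receptor site. The Hoxa5 stretch held none of these letters, nor TTTATG, a Cdx site. Hoxd8 and Hoxd12, also called lower in atria, had entries that are not printed. Hoxd8 held 1 nuclear receptor match, as Hoxc4 did, and Hoxd12 held no match. Whether matches go with the direction of the difference was not tested. Of 32851 promoters of this length, 15.9% held the TALE letters, 2.82% the joint site, 14.0% the nuclear receptor letters and 10.8% the Cdx letters. RefSeq entries covered 19 of the 33 genes with 21 starts, of which 2, 2, 5 and 3 held them in that order. A match describes letters only and no binding was measured.

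Among the anterior genes, Hoxa2, which patterns the hindbrain and the branchial arches, kept its call under each of the 15 alternatives that tested it. Its lowest, median and highest values were 43.2, 64.7 and 178.3 on 15 atrial arrays, against 15.9, 43.2 and 69.1 on 15 ventricular arrays. The ranges overlapped, and atria were higher at 5 of 5 ages. The log2 difference was 0.63 ± 0.15, or 1.55-fold, with an adjusted p of 0.0021. Without the 4 atrial arrays named above (array 3 of each age but E12.5) it was 0.51 ± 0.15, with an adjusted p of 0.016.

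Hoxa4, a gene of the hindbrain and cervical region, read 15.7, 52.0 and 97.2 in atria, against 4.2, 32.8 and 42.9 in ventricles. Atria were higher at 5 of 5 ages, by 0.67 ± 0.17 on average (adjusted p 0.0037), and by 0.59 with an adjusted p of 0.029 without the 4 arrays. Its second probe set, dimmer still, gave −0.17 with an adjusted p of 0.44. Hoxb2, a hindbrain gene above the median everywhere, read 221.1, 339.6 and 875.2 in atria, against 181.3, 255.2 and 345.8 in ventricles, and was higher at 5 of 5 ages. Its difference was 0.45 ± 0.12 (adjusted p 0.0052), and 0.33 ± 0.11 (adjusted p 0.032) without the 4 arrays.

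Hoxa3 and Hoxc4 were nearer the threshold. Hoxa3 read 99.1, 199.1 and 288.2 in atria, against 66.6, 157.7 and 200.8 in ventricles, with a difference of 0.34 ± 0.12 (adjusted p 0.034). It had 3 other probe sets, which gave 0.39 (adjusted p 0.016), −0.26 (adjusted p 0.30) and −0.53 (adjusted p 0.0094), so that called changes ran both ways within the gene. Without the 4 arrays these 3 gave 0.31 (adjusted p 0.11), −0.27 (adjusted p 0.38) and −0.50 (adjusted p 0.037). Hoxc4, an anterior Hoxc gene, read 20.6, 62.3 and 117.3 in atria, against 18.6, 30.7 and 103.7 in ventricles, with 0.51 ± 0.19 (adjusted p 0.039). Leaving out single arrays ended the call of Hoxa3 for 10 of 36 arrays and that of Hoxc4 for 15, with adjusted p up to 0.07 and 0.074. Without the 4 arrays together, the values were 0.28 (adjusted p 0.13) and 0.45 (adjusted p 0.13).

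The other anterior genes were not called. Hoxb3 gave 0.39 ± 0.21 (adjusted p 0.17) and Hoxb4 0.26 ± 0.10 (adjusted p 0.058), both positive at 5 of 5 ages. Hoxb3 read 98.0, 182.6 and 737.2 in atria, against 90.7, 154.1 and 217.0 in ventricles, and its difference was 0.11 without the 4 arrays. Their second probe sets were called higher in atria, at 0.82 (adjusted p 0.04) and 0.49 (adjusted p 0.0018), and without the 4 arrays gave 0.41 (adjusted p 0.24) and 0.39 (adjusted p 0.031). Hoxd3 gave 0.06, and Hoxb1 and Hoxd1, the genes of paralog group 1, gave −0.12 and −0.21. Leaving out the 4 arrays, 3 of 10 anterior genes were called higher and 0 lower, with 8 positive and a median of 0.27, and 23.1% of all probe sets were called. Of central genes 1 of 9 was then lower (median −0.14), and of posterior genes 2 of 14 (median −0.22).

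Hoxa5, a regulator of lung and airway development, had the smallest p of the 33 genes and a split between its probe sets. Its brighter probe set read 441.4, 695.1 and 933.6 in atria, against 795.8, 1081.4 and 1380.4 in ventricles. Atria were lower at 5 of 5 ages, by 0.63 ± 0.06 on the log2 scale on average, with an adjusted p of 5.1e-09, and by 0.66 without the 4 arrays. At E18.5 it read 613.1, 441.4 and 642.4 in atria, against 1048.7, 1233.6 and 1267.1 in ventricles, with no overlap. On the 6 heart region arrays it stayed between 886.9 and 969.9.

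The second Hoxa5 probe set moved the other way. It read 75.8 to 757.2 over all arrays, and its difference between atria and ventricles was 0.92, with an adjusted p of 0.00091. At E13.5 it read 299.5, 312.2 and 757.2 in atria, against 75.8, 107.4 and 99.3 in ventricles, a difference of 1.97 ± 0.46 with an adjusted p of 0.0071. At E18.5 the atrial values were 175.0, 97.8 and 251.3, against 178.5, 160.7 and 203.9, and the difference was −0.13. Without the 4 arrays the mean difference was 0.62 (adjusted p 0.019). The ID of the brighter probe set ends in x_at, which marks a design that can also bind related transcripts, and which of the probe sets follows the Hoxa5 messenger was not tested.

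**Figure D3:**
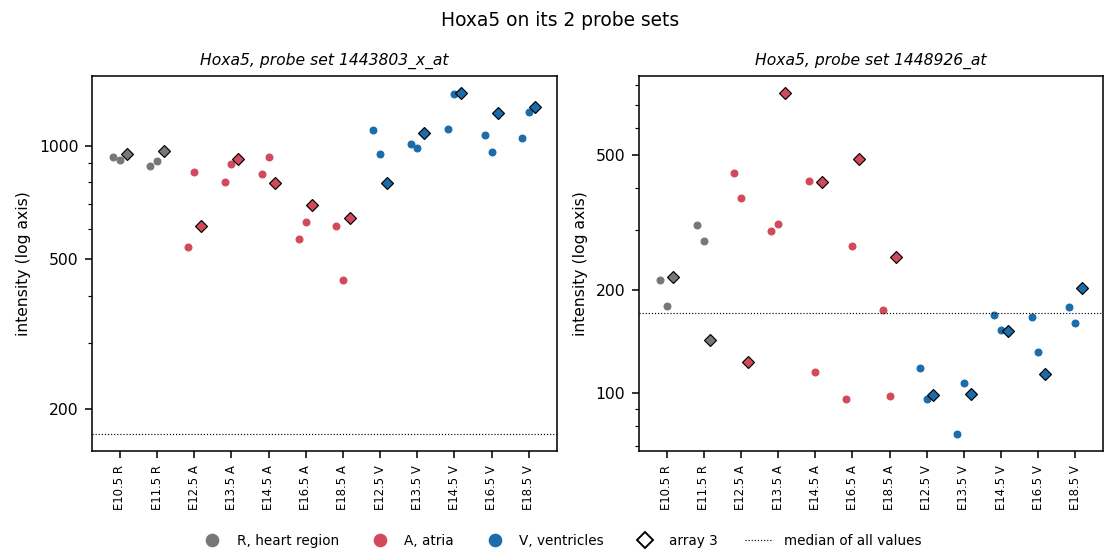
Intensity of Hoxa5 on each array (log axis) by group, on its brighter probe set at left and its second at right, with the dotted line at the median of all values. On the left the atrial points sit between 441.4 and 933.6 and the ventricular ones between 795.8 and 1380.4, and on the right the highest point is E13.5 atrial array 3 at 757.2.

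Over the whole set, 11 of the 33 genes had more than 1 probe set, with 15 others in all. Of these 15, 7 had the sign of the gene's chosen probe set in the atrial comparison. Called differences in opposite directions were found in Hoxa3 and Hoxa5.

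Among the other central genes, Hoxd8 was lower in atria. It read 31.7, 101.1 and 149.9 in atria, against 83.8, 140.4 and 189.1 in ventricles, a difference of −0.35 ± 0.12 (adjusted p 0.033). Atria were lower at 3 of 5 ages. Its second probe set gave −0.03 (adjusted p 0.92) and the mean of both −0.19 (adjusted p 0.23). Leaving out single arrays ended this call for 8 of 36 arrays, and without the 4 arrays the adjusted p was 0.11. Hoxc6, a thoracic and forelimb level gene, stood at 152.5, 256 and 391.9 in atria and 167.2, 262.3 and 384.3 in ventricles, with 186.2 to 249.4 in the heart region. It differed by −0.08 ± 0.12 between the chambers. Hoxb7, a trunk gene, read 108.2, 154 and 257.7 in atria, against 83.3, 206.7 and 290.5 in ventricles, and gave −0.20 ± 0.13 (adjusted p 0.26).

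Among the posterior genes, Hoxc10, a lumbar spinal cord and hindlimb gene, was the only one called higher in atria. It read 17.2, 72.6 and 308.5 in atria, against 18.9, 42.9 and 85.2 in ventricles, a difference of 0.59 ± 0.17 (adjusted p 0.010). Without the 4 arrays it was 0.38 (adjusted p 0.092). Hoxb9, Hoxc9 and Hoxd12 were lower, by 0.49, 0.30 and 0.24 on the log2 scale, with adjusted p of 0.038, 0.012 and 0.02. All 3 lay below the median on every array: Hoxb9 read 22.0 to 118.5 in atria, against 27.8 to 155.7 in ventricles, Hoxc9 13.9 to 44.1, against 21.9 to 64.2, and Hoxd12, a digit gene, 4.1 to 12.3, against 7.0 to 20.7. Without the 4 arrays Hoxc9 and Hoxd12 kept adjusted p of 0.04 and 0.036, while that of Hoxb9 was 0.071, and leaving out single arrays ended the call of Hoxb9 for 13 of 36. Without the 2 arrays with the highest liver genes Hoxb9 gave −0.38 (adjusted p 0.12).

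The posterior genes above the median on 3 or more chamber arrays were not called. Hoxa9 read 144.8, 296.3 and 429.8 in atria, against 155.5, 339.8 and 509.8 in ventricles (log2 difference −0.18, adjusted p 0.37). Hoxa11, a limb, kidney and uterus gene, read 78.9, 136.6 and 279.1 in atria, against 108.9, 139.8 and 280.3 in ventricles (−0.11, adjusted p 0.53). Hoxd13, a digit and genital gene, read 72.0, 156 and 240.9 in atria, against 54.8, 125.8 and 182.6 in ventricles (0.31, adjusted p 0.06). In each of the 3 the ranges of the chambers overlapped widely.

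Lists for other cell types also differed between the chambers. In atria 7 of 8 epicardial genes, 9 of 10 fibroblast and matrix genes and 5 of 6 leukocyte genes were called higher, and none lower. Of all probe sets, 14.1% were called higher and 14.9% lower. Counts for the remaining cell type lists are not given here. Epicardial genes summed to 9173 to 16297 in atria, against 6101 to 9633 in ventricles, and fibroblast genes to 29312 to 78264, against 24454 to 51290. Their part in the Hox differences was not tested. In whole tissue, fewer cells of a type and less RNA per cell cannot be told apart.

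At single ages few Hox genes passed. At E12.5, 3 of 33 did, against 5.29% of all probe sets (2.43% higher and 2.86% lower). Hoxa4 read 72.2, 93.4 and 25.3 in atria, against 4.2, 16.2 and 12 in ventricles, with no overlap and a difference of 1.45 ± 0.39 (adjusted p 0.023). Hoxa5 read 538.9, 854.0 and 613.8, against 1103.2, 951.6 and 795.8, and Hoxd8 82.2, 86.2 and 31.7, against 128.3, 140.4 and 142.3. They were lower in atria by 0.51 and 0.96 on the log2 scale, with adjusted p of 0.03 and 0.038. These 3 values come from the brighter probe sets, and the second ones gave −0.23 for Hoxa4, 1.27 for Hoxa5 and −0.09 for Hoxd8, none of them called, with the direction turned in Hoxa4 and Hoxa5. The largest difference not called was that of Hoxa2, at 0.75 ± 0.34.

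Leaving out a single E12.5 array ended each of these calls. Without E12.5 atrial array 2 and E16.5 ventricular array 2, the arrays with the highest liver genes, Hoxa4 gave 1.17 (adjusted p 0.13). For Hoxa4 the loss of the call held for ventricular arrays 1 and 3 and atrial arrays 1 and 2, with values of 1.17 to 1.49 and adjusted p up to 0.12. For Hoxa5 it held for ventricular arrays 1 and 2 and atrial arrays 1 and 3, with adjusted p up to 0.23. For Hoxd8 it held for all 3 ventricular arrays and atrial array 3, without which the value was −0.60 (adjusted p 0.21).

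At E13.5, 2 of 33 were called, against 6.54% of all probe sets (3.26% higher and 3.28% lower). Hoxb2 read 339.6, 323.7 and 875.2 in atria, against 206.4, 215.5 and 219.8 in ventricles, 1.05 ± 0.27 apart (adjusted p 0.017). Without atrial array 3 the difference was 0.59, with an adjusted p of 0.19, and without ventricular array 1 the adjusted p was 0.062. Hoxd13 read 182.4, 240.9 and 108.7 in atria, against 78.0, 54.8 and 71.9 in ventricles, 1.14 ± 0.28 apart (adjusted p 0.011), and its second probe set gave 0.20. Without atrial array 2 or ventricular array 2 its adjusted p was 0.095 and 0.062. Neither pair of groups overlapped. All 10 of 10 anterior genes were positive at this age, with a median of 0.63, against 0.07 for all probe sets. Central genes were positive in 8 of 9 cases and posterior genes in 8 of 14. At each other age 6 to 8 of 10 anterior genes were positive, with medians from 0.08 to 0.45. With the 4 arrays left out, 10 of 10 anterior genes were positive at E13.5 (median 0.37), against 26638 of 45037 probe sets. Among those arrays was atrial array 3 of E13.5. The largest difference not called was 1.27 ± 0.73 for Hoxb5 (adjusted p 0.36), which rests on that array: it read 8.4, 15.2 and 604.8 in atria, against 16.8, 18.2 and 13.2 in ventricles, and gave −0.21 without the 4 arrays.

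At E14.5, 2 of 33 were called, against 3.51% of all probe sets (2.16% higher and 1.35% lower). Hoxc10 read 77.2, 91.8 and 308.5 in atria, against 38.9, 28.0 and 52.5 in ventricles, 1.42 ± 0.39 apart (adjusted p 0.038). Without atrial array 3 the difference was 0.86 (adjusted p 0.30), and without ventricular array 1 or 2 the adjusted p was 0.13 and 0.10. Hoxa5 read 839.9, 933.6 and 798.6, against 1111.6, 1370.6 and 1380.4, lower in atria by 0.57 on the log2 scale (adjusted p 0.021), a call that ended without ventricular array 2 or 3 or atrial array 1 or 3, at an adjusted p of up to 0.11. This is its brighter probe set: the second gave 0.74 and the mean of both 0.08, neither called. Both genes had no overlap. The largest difference not called was 1.08 ± 0.42 for Hoxc4, which read 88.3, 43.8 and 112.9 in atria, against 29.1, 24.7 and 28.7 in ventricles.

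At E16.5 and E18.5 Hoxa5 alone was called, so 1 of 33 at each age. Of all probe sets, 9.34% were called at E16.5 (4.77% higher and 4.57% lower) and 11.3% at E18.5 (6.53% higher and 4.82% lower). At E16.5 its brighter probe set read 567.0, 629.8 and 695.1 in atria, against 1065.9, 964.5 and 1223.9 in ventricles, a difference of −0.76 ± 0.14 (adjusted p 0.00045). At E18.5 it was −1.06 ± 0.14 (adjusted p 5e-06), or 2.08-fold lower in atria. Leaving out any 1 array ended neither call. The second Hoxa5 probe set gave 0.73 (adjusted p 0.37) at E16.5 and −0.13 (adjusted p 0.92) at E18.5. With the probe sets of the gene averaged, neither call held. The largest uncalled differences were −1.15 ± 0.39 for Hoxd9 at E16.5 and 1.09 ± 0.41 for Hoxa10 at E18.5, with adjusted p of 0.063 and 0.091. The second Hoxa10 probe set gave 0.44 at E18.5.

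Within a chamber, few Hox genes were called between ages. In ventricles at E18.5 against E12.5, 1 of 33 was called, against 16.8% of all probe sets (7.39% higher and 9.41% lower). This was Hoxc9, with 54.6, 64.2 and 58.8 at E18.5, against 32.1, 25.9 and 38.1 at E12.5, a difference of 0.64 ± 0.20 (adjusted p 0.026) with no overlap. Leaving out ventricular array 1 or 2 of E12.5, or 2 or 3 of E18.5, ended the call, with adjusted p of 0.06 to 0.098. The largest difference not called was −0.93 ± 0.41 for Hoxa10 (adjusted p 0.13), whose second probe set gave −0.11. In atria at E18.5 against E12.5, limma called 0 of 33, against 14.4% of all probe sets (7.52% higher and 6.88% lower), with 2 at an unadjusted p below 0.05. The largest difference was −1.11 ± 0.40 for Hoxc5 (adjusted p 0.059). Its lowest, middle and highest values were 7.7, 22.1 and 44 in E18.5 atria, against 40.8, 78.1 and 90.5 in E12.5 atria, which overlapped. The other probe sets of Hoxc5 gave −0.20 and 0.02, neither called.

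The E18.5 against E12.5 difference was itself compared between the chambers, as that of atria minus that of ventricles. limma called 0 of 33 Hox genes, against 1.74% of all probe sets (1.28% higher and 0.46% lower), with 4 at an unadjusted p below 0.05. The largest was Hoxa10 at 1.67 ± 0.59 (adjusted p 0.15), and Hoxa5 gave −0.55 ± 0.20 (adjusted p 0.17). Their second probe sets gave 0.70 and −1.40, neither called.

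Several Hox genes had their highest value on the same few arrays. Of the 33 genes, 7 had their highest value of all 36 arrays on E13.5 atrial array 3 and 5 on E14.5 atrial array 3. On E14.5 ventricular array 1 this held for 4 genes. How often an array holds the highest value over all genes was not counted. Hoxb5, a gene of the lung and gut mesenchyme, read 604.8 on E13.5 atrial array 3, 132.8 on E14.5 array 3 and 169.4 on E16.5 array 3, and 5.0 to 23.6 on the other 33 arrays. It was not called, at 0.53 ± 0.33 for the mean of 5 ages (adjusted p 0.24), and without the 4 arrays the value was −0.14. On the same E13.5 array the neighbours Hoxb2, Hoxb3, Hoxb4 and Hoxb6 read 875.2, 737.2, 219.8 and 248.6, each above all 35 other arrays. Hoxb7, Hoxb9 and Hoxb1 were not raised with them, at 108.2, 28.3 and 90.8, and for Hoxb7 this was the lowest atrial value. The foregut and lung genes were high on that array and on E16.5 array 3. They were also high on E18.5 array 3, where Hoxb5 read 20.8, and were at 2240 on E14.5 array 3, which is the median of the atrial arrays. Their part in the Hoxb values was not tested.

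E14.5 atrial array 3 held a different set, with 1 central and several posterior genes of 3 clusters. Hoxd10, a lumbar level gene, read 288.7 there and at most 28.5 on the other 35 arrays. Hoxc8, Hoxd9 and Hoxd11 read 178.5, 169.3 and 68.2, against at most 83.2, 101.7 and 44.3, and Hoxc10 308.5, against at most 138.6. The second probe sets of Hoxa9 and Hoxa10 read 426.4 and 317.7 there, against at most 34.1 and 108.1, while their chosen probe sets read 429.8 and 114.5, against at most 509.8 and 156.9. Other posterior genes were not at their highest there, among them Hoxc9 at 24.6, Hoxd12 at 11.4, Hoxd13 at 149.3 and Hoxa13 at 121.2, against up to 64.2, 20.7, 240.9 and 196.4 elsewhere. On this array 8 of 10 somite and skeletal muscle genes were above the median, against at most 6 on the others, with a sum of 2521. Atrial array 1 of the same age had a sum of 2540 and no such Hox values, with 4.1 for Hoxd10. The part of these tissues in the Hox values was not tested.

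**Figure D4:**
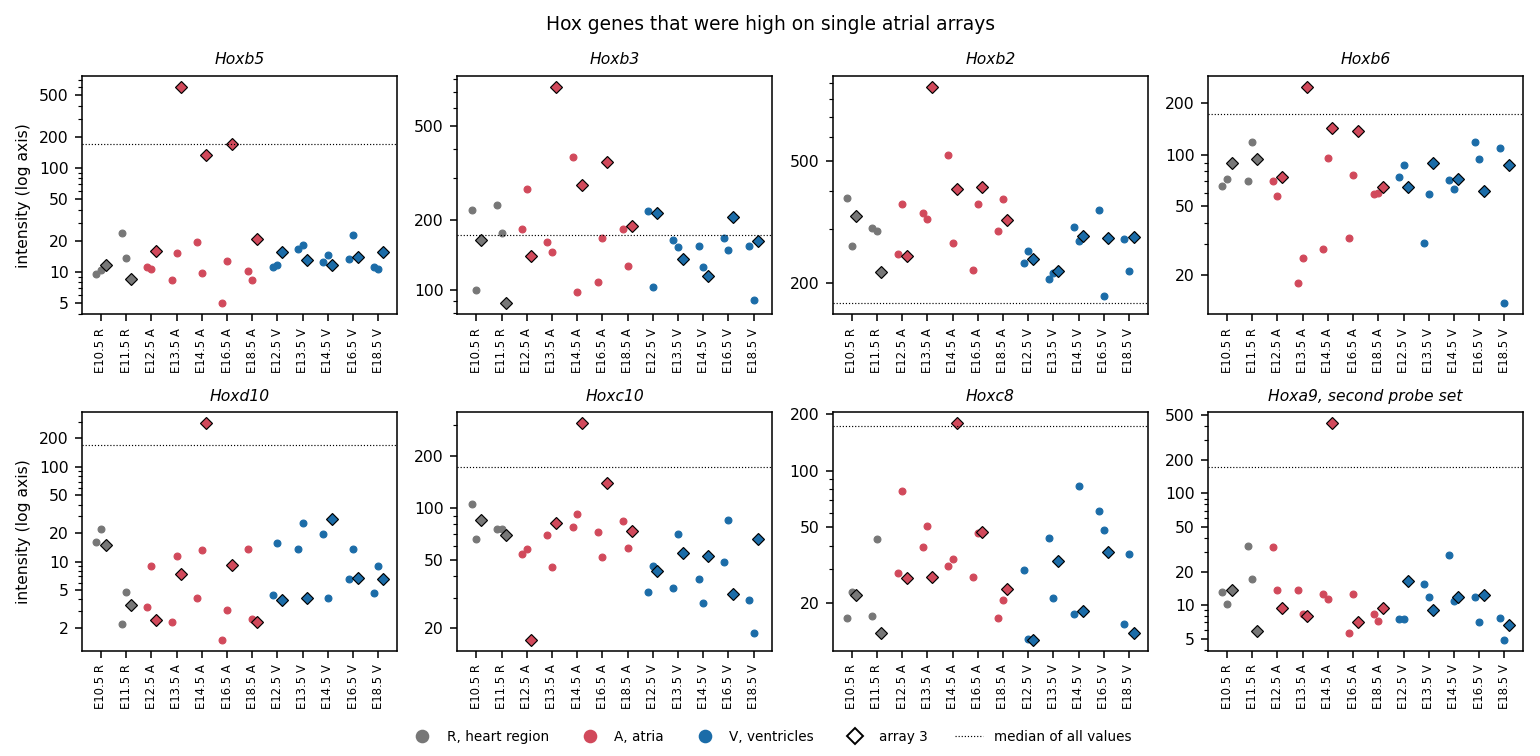
Intensity on each of 36 arrays (log axis) by group, for 4 Hoxb genes above and 4 posterior or central probe sets below. Array 3 of each group is drawn as a diamond, and the dotted line marks the median of all values; Hoxb5 reaches 604.8 on E13.5 atrial array 3 and Hoxd10 288.7 on E14.5 atrial array 3.

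Partners and regulators of the Hox genes were read from lists chosen by function. Of 8 TALE cofactors, 7 lay above the median on 3 or more arrays, with Meis3 near it at 199 in atria and 174 in ventricles, and Pbx4 below it at 56.8 and 49.7. As for the Hox genes, the lists' counts stand against 27.9% of all probe sets called in chambers against the heart region and 29.1% in atria against ventricles. In chambers against the heart region, 6 of 8 were lower and 1 higher, with a median of −0.49. Pbx2 averaged 2418 ± 697 in atria and 2290 ± 733 in ventricles (SD, n = 15 each), against 4304 ± 370 in the heart region (n = 6), a log2 difference of −0.93 with a limma adjusted p of 4.8e-10. Pknox2 and Meis2 gave −0.67 and −0.56, with adjusted p of 1.1e-05 and 2.4e-05. Between atria and ventricles 2 were higher, Pknox2 at 0.38 and Pknox1 at 0.26, and Meis2 was lower at −0.21, with a list median of 0.13.

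Genes of retinoic acid synthesis, binding and response were read likewise. Of 13 measured, 4 were higher in atria and 2 lower, with a median of 0.21. Aldh1a1, which makes retinoic acid, averaged 374 ± 126 in atria, against 66.4 ± 53.4 in ventricles, a log2 difference of 2.39 ± 0.17 (limma adjusted p 7e-12, n = 15 each). Crabp1, a retinoic acid binding protein, gave 1.34 ± 0.28, and Aldh1a2, the main synthetic enzyme of the embryo, 0.82 ± 0.08. Crabp1 averaged 115.2 ± 174.5 in atria and 15.2 ± 23.3 in ventricles, so its SD exceeded its mean in both. In chambers against the heart region 4 of 13 were lower and 1 higher, with a median of 0.04. Crabp1, the degrading enzyme Cyp26b1 and Crabp2 gave −2.26, −1.61 and −1.49, with adjusted p of 6.7e-06, 8.2e-07 and 8.5e-05.

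Of 18 Polycomb and Trithorax genes, which keep Hox genes silent or active, 2 were higher and 5 lower in atria (median −0.07), with Kdm6b at −0.43, Phc2 at 0.28 and Bmi1 at −0.28 among them. In chambers against the heart region 2 were higher and 6 lower (median −0.09), led by Bmi1 at 0.59, Cbx2 at −0.50 and Men1 at −0.39. Of 9 Evx genes and cluster neighbours, 1 was higher and 3 lower in atria (median −0.23), led by Evx1 at −0.54, Mtx2 at −0.38 and Skap2 at 0.32. In chambers 2 were lower than in the heart region, Lnpk and Cbx5, both at −0.35, with a median of −0.01. None of 6 ParaHox and Cdx genes reached the median on 3 arrays, and only Pdx1 was called, at −0.64 in atria against ventricles. The list medians were −0.12 in that comparison and 0.09 in chambers against the heart region. Of 8 further trunk homeobox and T-box genes, Lbx1 and Msx1 were lower in atria at −0.60 and −0.41, and Msx2 and Msx1 were lower in chambers than in the heart region at −1.20 and −0.54. The medians of this list were −0.15 and 0.08.

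Probe sets for antisense transcripts and for shared pairs were read beside the 33 genes. Hoxb5os, annotated opposite Hoxb5, read 14.3, 91.5 and 279.1 in atria, against 94.5, 137.3 and 203.1 in ventricles, a difference of −0.59 with an adjusted p of 0.032. Its highest value was on E13.5 atrial array 3, as for Hoxb5. The probe set shared by Hoxb8 and Hoxb7 was higher in chambers than in the heart region, at 0.60 (adjusted p 0.028), and 1 of 2 shared by Hoxd4 and Hoxd3 was lower, at −0.70 (adjusted p 0.0044), with 242.0 on heart region array 1 of E11.5 and at most 107.7 elsewhere. A shared probe set cannot assign its signal to either gene.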

How the data were processed

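The deposited values are intensities on a linear scale, 1 for each of 45101 probe sets on each of 36 arrays. How the authors computed these intensities from the scans remains not given in the sources used here. All arrays had the same mean after dropping 2% at each end, so the deposited scaling was kept. After 64 control probe sets were left out, 45037 were tested, of which 34945 had 1 gene symbol, 932 several and 9160 none in GEO's platform annotation. No pair of arrays held identical values, and correlations within a group lay between 0.956 and 0.981.

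Groups came from titles and source fields, with the title's day for E16.5. R 4.3.3 with limma 3.58.1 fitted 12 group means to log2(intensity + 17), the pseudocount being 10% of the median of all values, with an intensity trend, 24 residual and 5.3 prior degrees of freedom, two-sided. No filter on low values was applied, because a gene could pass it through the group where it is high. With 3 arrays a group, their number limits the precision. On simulated data for atria against ventricles over 45037 probe sets, 97% of changes of log2 1 and 100% of log2 2 were recovered, with 15 false calls. Hox differences averaged over the ages were smaller, from −0.63 to 0.67, so these rates do not describe them. The simulated noise was normal and held no arrays that stood apart.

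No pairing of array numbers was used. The genes and lists were chosen with earlier results of these data known. Every Hox gene is accounted for; those described singly are the called ones, those above the median on 3 or more chamber arrays and the largest uncalled one in each comparison, and the single arrays were chosen after their values were seen. From each other list up to 3 called genes are named per comparison. Alternatives covered normalization, pseudocount, filters, arrays fitted, trend, array weights, replicate block, probe set choice and arrays left out; leaving out 4 atrial arrays together was added after seeing the data.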

Additional observations from a re-analysis of the deposited data

How the results depend on the processing

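Counts below are Hox genes called, with those under the reported settings in the report. Apart from single arrays left out, only the larger shifts of a count are listed. Leaving out single arrays in turn, chambers against the heart region gave 2 to 4 higher and 0 to 1 lower, and atria against ventricles over 5 ages 4 to 8 higher and 3 to 6 lower. At E12.5 it gave 0 to 1 higher and 0 to 2 lower, at E13.5 1 to 2 higher and 0 to 1 lower, at E14.5 0 to 1 each way and at E16.5 1 to 2 lower. By age it gave 0 to 1 higher in ventricles and 0 to 1 lower in atria. Hoxd3 ranged from −0.09 to 0.18 in atria against ventricles, and was −0.05 without all E14.5 arrays.

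Same-numbered atrial and ventricular arrays did not deviate together: over 15 pairs the correlation of their deviations was −0.34 to 0.16, above 0.1 in 1. With a replicate block within age, the mean of 5 ages had 6 higher and 2 lower, E12.5 had 0 higher and 0 lower, E13.5 0 higher and E14.5 0 higher and 0 lower. With the array number alone as a replicate block no count moved.

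Fitting only the compared arrays left 0 higher and 0 lower at E12.5, 0 higher and 1 lower at E13.5, 0 higher and 0 lower at E14.5, 0 higher in ventricles by age and 1 lower in E11.5 against E10.5. Such fits hold fewer arrays. With array weights, chambers had 5 higher, E12.5 0 lower, E13.5 1 lower, E14.5 0 higher, E16.5 2 lower, E18.5 1 higher, and atria by age 1 higher and 3 lower. Quantile normalization gave 1 lower in chambers, 2 lower at E18.5 and 1 lower in atria by age. Median centring gave 1 lower in chambers, 0 lower at E12.5 and 0 lower at E14.5. A pseudocount of 1 gave 0 higher at E14.5 and 0 higher in ventricles by age, and 1 that was 4 times higher gave 2 lower at E18.5. The cause of these shifts was not tested.

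Filters remove dim genes by construction. Hoxa2, Hoxa4, Hoxc4 and Hoxc10, called higher in atria over 5 ages, did not pass either filter and were not tested there. Kept above the median on 3 or more arrays, 11 Hox genes gave 1 higher in chambers, 1 lower in the mean of 5 ages, 0 higher and 1 lower at E12.5, 0 higher at E14.5 and 0 higher in ventricles by age. This filter kept 27256 probe sets. Of these, 43.5%, 42.4%, 9.67%, 6.18% and 28.7% were called in either direction in the same comparisons, in that order. Above the 75th percentile, 1 gene remained tested, with 0 higher in chambers, 0 higher and 1 lower in the mean of 5 ages, 0 higher and 1 lower at E12.5, and 0 higher at E13.5, at E14.5 and in ventricles by age. With that percentile as the level threshold, 1 gene reached it on 3 arrays in each set of arrays.

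The choice of probe set turned directions. Averaging the probe sets of a gene gave −0.02 for Hoxa3 and 0.15 for Hoxa5 over 5 ages, and for Hoxa5 0.38 at E12.5 and 0.08 at E14.5. It gave 3 lower in the mean of 5 ages, 0 higher and 0 lower at E12.5, 4 higher at E13.5, and 0 lower at E14.5, E16.5 and E18.5. With the second probe set, Hoxa9 was −0.05 in chambers, and Hoxa4 −0.17 over 5 ages and −0.23 at E12.5. Hoxa5 was 0.92 over 5 ages, 1.27 at E12.5, 0.74 at E14.5 and 0.73 at E16.5. The counts were then 1 higher in chambers, 3 lower in the mean of 5 ages, 0 higher and 0 lower at E12.5 and 0 lower at E14.5, E16.5 and E18.5.

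Without the 3 chamber arrays with the highest lung genes, the mean of 5 ages had 3 higher and 3 lower, E12.5 1 lower, E13.5 1 higher and atria by age 1 lower. Without the 2 with the highest Alb, a liver gene, E12.5 had 0 higher. Without the 4 atrial arrays, an alternative added after seeing the data, chambers had 1 lower, the mean of 5 ages 3 higher and 3 lower, E12.5 1 lower, E13.5 1 higher, E14.5 0 higher and 0 lower, and atria by age 1 lower. Hoxa2 and Hoxb2 kept their call over 5 ages under all 15 and 16 alternatives that tested them. Most Hox genes lie below the median intensity, where a log2 difference is understated, and values of dim probe sets have the least support.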
